A study of Mus musculus with 11 samples.

Results

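The comparison described here sets 3 heart libraries labelled Total KO, from mice with a total knockout of Cd36, against 2 heart libraries labelled Control. These are 5 of the 11 libraries of the study, taken by their labels, and every gene of the table was eligible. The labels give all 11 libraries 1 strain, Cd36 loxp mice crossed with Cd36 loxp mice, so both groups are listed with the floxed allele. They give no Cre to Control and do not say how the total knockout was made. They give no age, sex or treatment either. The other groups, used below only to show where Total KO differs, are an endothelial knockout made with Tie2-cre (EC KO, 3 libraries) and a cardiomyocyte knockout made with MHC-cre (CM KO, 3 libraries). Each library carries a label number whose meaning is not given, and Total KO and Control numbers lie in separate runs, so a batch that these numbers might mark cannot be told apart from the genotype. No source says that the libraries come from separate animals, so p-values measure only the spread between these libraries.

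CD36 is a scavenger receptor of the plasma membrane that binds long-chain fatty acids and takes part in their uptake. In the heart it lies on endothelial cells, which face the blood, and on cardiomyocytes, which burn the fatty acids for most of their ATP. Fatty acids that enter cardiomyocytes are also ligands of the nuclear receptor PPAR-alpha, which drives genes of fatty acid oxidation and the block of glucose oxidation by PDK4. The data are whole-tissue RNA, in which fewer cells of a type and less RNA per cell cannot be told apart.

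The gene that the label names was read first. Cd36 stood at 44530 and 35425 normalized read counts in the Control libraries and at 18847, 23452 and 21266 in the Total KO libraries. Every Total KO library was below both Control libraries, and none was near 0. The Total KO mean was 53% of the Control mean. The log2 difference was -0.91 ± 0.17 (SE from limma, n = 3 and 2) with a Benjamini-Hochberg adjusted p of 0.0809, so Cd36 did not pass the threshold of 0.05 in the comparison named for it. It passed with DESeq2 (-0.92, adjusted p = 2.06e-05) and missed with edgeR (-0.92, adjusted p = 0.0553). A value per gene sums all exons, so reads from exons outside a deleted stretch would still count, and the labels do not say which exons were removed. Cd36 lies on the minus strand of mouse chromosome 5 (mm10, chr5:17781690-17888801 in GENCODE vM21) and overlaps no other annotated gene. Of the 23 other tested genes within 5 Mb of Cd36, 0 passed with limma, edgeR or DESeq2, and 1 had an unadjusted p under 0.05. That gene was Gnai1, an inhibitory G protein alpha subunit, at 164 and 151 in Control and at 113, 99.8 and 119 in Total KO (log2 difference -0.51, unadjusted p = 0.0249). The 23 genes had a median log2 difference of -0.08 and ranged from -0.51 to 0.22.

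Few genes separated the groups. Of 12976 genes with a mean of at least 10 normalized read counts over the 11 libraries, 11 passed the adjusted threshold (0.0848%). Of these, 8 were higher in Total KO (0.0617%) and 3 were lower (0.0231%). The 8 that rose were Acta1, Nlrc3, Kcnc1, Syt12, Pdzd3, Cnksr1, Ankrd23 and Cpxm2, and Tnfrsf19 and Sorcs2 were among the 3 that fell. edgeR called 14 genes (0.108%), 7 higher and 7 lower, and held 10 of the 11. DESeq2 called 100 (0.771%), 51 higher and 49 lower, and held all 11. Rescaling to library totals gave 26 genes, 11 higher and 15 lower, so the share of rises among the calls depends on the scaling. At an unadjusted p under 0.05, 507 genes were higher (3.91% of those tested) and 545 lower (4.20%). Of all tested genes, 1596 (12.3%) had each Total KO library above both Control libraries, and 1656 (12.8%) had each below. The count moved with single libraries. Without Control replicate 1 only Ankrd23 passed, without Control replicate 2 there were 22 genes, and without Total KO replicate 1, 2 or 3 there were 4, 4 and 3. Leaving out CM KO replicate 1, which is in neither group but shares the estimate of spread, gave 33.

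**Figure D1:**
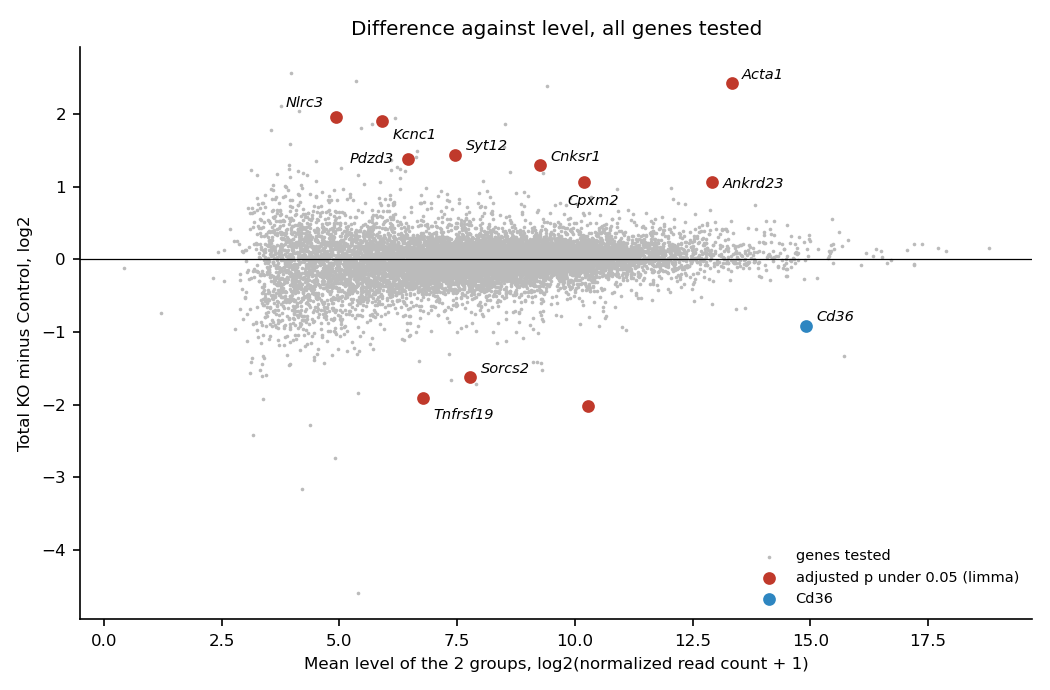
Difference between Total KO and Control (log2, vertical axis) against the mean level of both groups, log2(normalized read count + 1), for the 12976 tested genes. Grey points are genes tested, red points the 11 genes with an adjusted p under 0.05 (10 of them named) and the blue point Cd36, which lies at -0.91. Some grey points lie farther from 0 than the red ones and did not pass.

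Tnfrsf19 and Sorcs2, which fell, encode cell surface receptors. Groups that did not overlap were a condition for naming each gene that passed, apart from Nlrc3, so that trait is no result. Tnfrsf19, also called Troy, is a TNF receptor family member that acts in Wnt-linked development. It stood at 139 and 206 in Control and at 43.3, 46.9 and 42.5 in Total KO. The Total KO libraries lay close together and below both Control libraries, with a log2 difference of -1.91 ± 0.26 and an adjusted p of 0.0137. Tnfrsf19 passed in 6 of 11 fits that left out 1 library and missed without either Control or any Total KO library (highest adjusted p 0.0851). An annotated lincRNA, Gm41168, overlaps Tnfrsf19 on the opposite strand, and the strand setting of the counting is not given, so reads of the pair may not be separated. Sorcs2, a sorting receptor of the VPS10 family that binds neurotrophin precursors, stood at 336 and 321 in Control and at 122, 87.0 and 113 in Total KO. Its log2 difference was -1.62 ± 0.25 with an adjusted p of 0.0315, and the groups did not overlap. Sorcs2 passed in only 3 of 11 fits that left out 1 library, missing without either Control library, any Total KO library or any EC KO library. Sorcs2 overlaps Psapl1 and Mir7689 on the opposite strand.

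Among the genes that rose, Ankrd23 and Acta1 belong to the contractile apparatus. Ankrd23 encodes a muscle ankyrin repeat protein that sits at titin in the sarcomere. It stood at 5821 and 4189 in Control and at 11242, 9359 and 10550 in Total KO. Every Total KO library exceeded both Control libraries, and the group means differed 2.07-fold. The log2 difference was 1.07 ± 0.14 with an adjusted p of 0.0117, and Ankrd23 missed the threshold without Total KO replicate 1 or 3 (highest adjusted p 0.0560). Acta1 encodes skeletal muscle alpha-actin, the isoform that the fetal and the stressed rodent heart uses beside the cardiac one. It stood at 2217 and 3777 in Control and at 11255, 30215 and 11255 in Total KO. The groups did not overlap, but replicate 2 stood far above the other two Total KO libraries. The log2 difference was 2.43 ± 0.40 with an adjusted p of 0.0497, just inside the threshold. edgeR gave an adjusted p of 0.0553, and Acta1 passed in only 2 of 11 fits that left out 1 library, missing without either Control or any Total KO library. Acta1 encodes a protein nearly identical to that of Actc1, the cardiac alpha-actin, and how reads that match both were counted is not given, so its level is uncertain. Actc1 itself stood at 136894 and 177584 in Control and at 174212, 203377 and 167450 in Total KO (log2 difference 0.22 ± 0.21, adjusted p = 0.882).

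Other genes that rose act in signalling, at the membrane or outside the cell. Cnksr1, a scaffold of the Ras-Raf pathway, stood at 378 and 324 in Control and at 938, 891 and 766 in Total KO. Its lowest Total KO value was above its highest Control value, the log2 difference was 1.30 ± 0.15 and the adjusted p was 0.00875. Pdzd3, a PDZ domain scaffold of membrane transporters, stood at 50.5 and 44.0 in Control and at 112, 130 and 135 in Total KO (log2 difference 1.39 ± 0.18, adjusted p = 0.0117). Syt12, a synaptotagmin found on vesicles, stood at 80.1 and 108 in Control and at 237, 303 and 231 in Total KO (log2 difference 1.44 ± 0.19, adjusted p = 0.0137). For all 3 genes every Total KO library was more than 1.5 times the highest Control library, and some gap was a condition for naming them. Kcnc1 encodes the voltage-gated potassium channel Kv3.1. It stood at 24.1 and 23.9 in Control and at 87.8, 113 and 80.9 in Total KO, a log2 difference of 1.91 ± 0.31 with an adjusted p of 0.0477. The Control values were almost equal, yet Kcnc1 passed in only 4 of 11 fits that left out 1 library and missed without either Control or any Total KO library. Cpxm2, a secreted carboxypeptidase-like protein, stood at 676 and 842 in Control and at 1572, 1554 and 1616 in Total KO. The Total KO values lay within a narrow band above both Control values, with a log2 difference of 1.07 ± 0.15 and an adjusted p of 0.0147. Nlrc3, an NLR protein that dampens innate immune signalling, stood at 10.1 and 12.7 in Control and at 56.0, 46.0 and 40.0 in Total KO. Its log2 difference was 1.96 ± 0.28 with an adjusted p of 0.0175, and it is named although its mean is under the minimum of 50 set for named genes, a choice made after its values were seen. Cpxm2, Nlrc3 and Syt12 each missed without Control replicate 1 or without any 1 Total KO library. Pdzd3 missed without either Control library or without Total KO replicate 2 or 3. Cnksr1 missed only without Control replicate 1. Of the genes that rose, Acta1 overlaps an annotated gene on the opposite strand (Gm20388), as does Syt12 (A930001C03Rik). Cpxm2 overlaps Fgfr2 on the same strand and Gm15677 and an rRNA gene on the opposite one, and Ankrd23 overlaps Gm42417 on the same strand, so reads may not be separated there. Kcnc1, Pdzd3, Cnksr1 and Nlrc3 overlap no annotated gene.

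**Figure D2:**
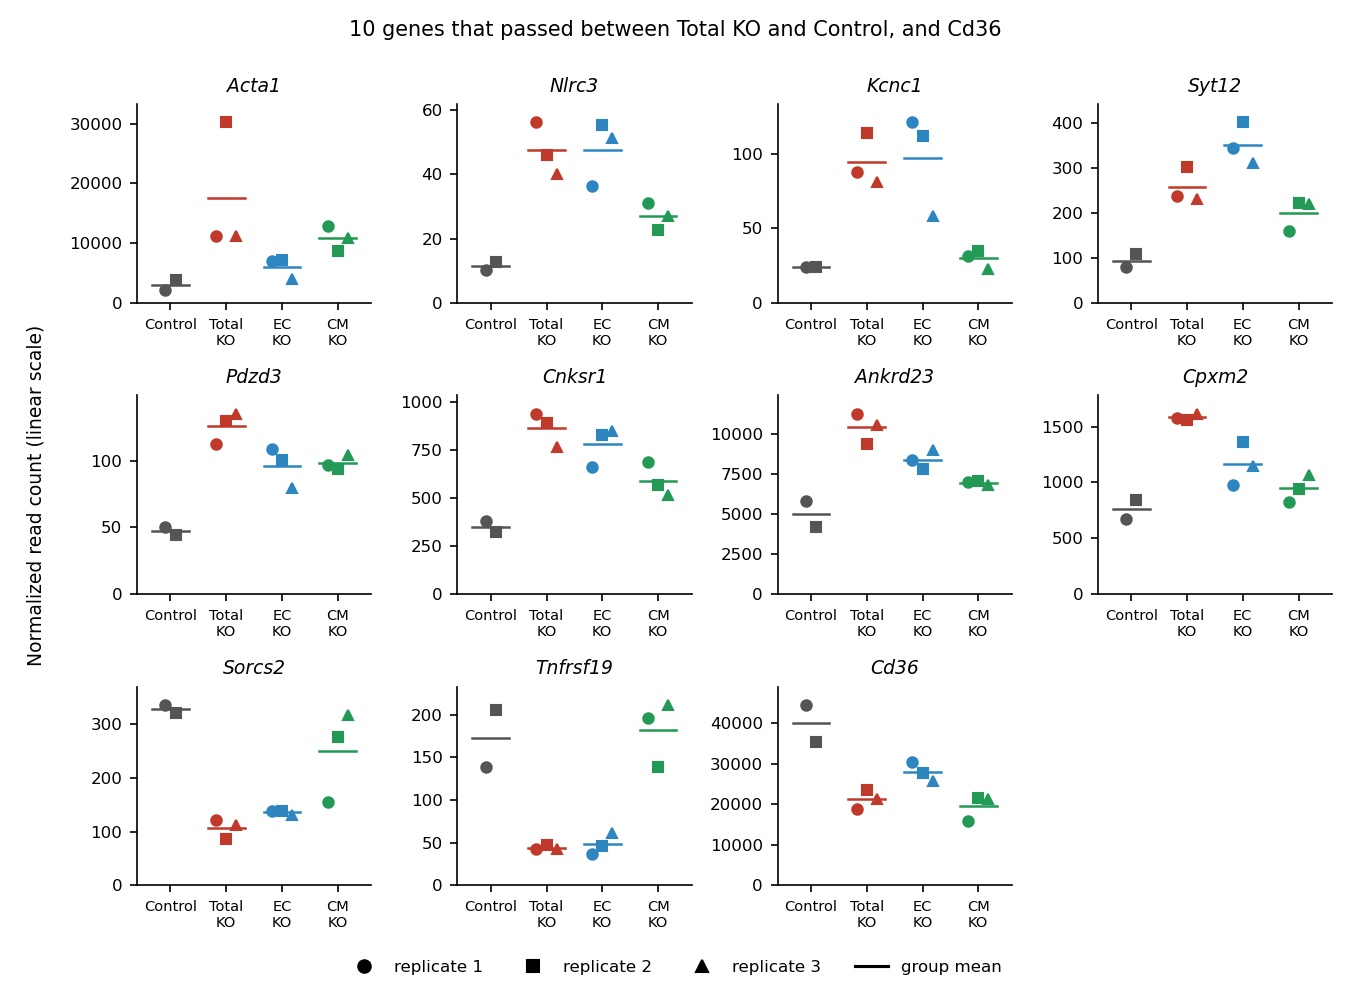
Normalized read counts (linear axis from 0) of 10 of the 11 genes that passed between Total KO and Control, and of Cd36, in all 11 libraries. Points are libraries, marked by replicate, and lines are group means. In each panel the 3 Total KO libraries lie on one side of the 2 Control libraries. For Ankrd23 they lie at 9359 to 11242 against 4189 and 5821. Groups that did not overlap were a condition for naming these genes, apart from Nlrc3 and Cd36.

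Promoters of these genes are shown because the genes moved in the same hearts and 2 of them are muscle genes with well-known control elements. Of the 11 genes and Cd36, 9 had promoters in the RefSeq table (GRCm38.p6). The 250 bases before each annotated start were searched on both strands for AGGTCA (the nuclear receptor half-site), CATTCC (the M-CAT element of muscle genes), CACGTG (the E-box of clock genes), TATAAA and the CArG box of serum response factor. AGGTCA was in 14.0% of 32851 promoters, CATTCC in 12.6%, CACGTG in 6.02%, TATAAA in 12.4% and the CArG box in 1.47%. CATTCC was found in promoters of Acta1, Ankrd23 and Cpxm2. Of the called genes with a promoter all but Tnfrsf19 rose, so matches cannot be set against direction. The Acta1 window also held a CArG box and TATAAA, and the Cd36 window held 1 half-site. The Cd36 window lies inside the span of the gene, before an internal start, and not before its outer start. The Ankrd23 window with CATTCC also lies inside its gene. Cnksr1 and Tnfrsf19 each had a window with CACGTG. No match overlapped another. The windows of Kcnc1, Pdzd3 and Nlrc3 held none of the 5. Matches are letters only and say nothing of binding. Sequences run 5′ to 3′ on the strand of the gene, with the matches in capitals. The window of Acta1 is chr8:123894776-123895025 on the minus strand, that of Ankrd23 chr1:36535740-36535989 on the minus strand (the second of its 2 promoters), that of Cpxm2 chr7:132154742-132154991 on the minus strand and that of Cd36 chr5:17835897-17836146 on the minus strand.
Acta1: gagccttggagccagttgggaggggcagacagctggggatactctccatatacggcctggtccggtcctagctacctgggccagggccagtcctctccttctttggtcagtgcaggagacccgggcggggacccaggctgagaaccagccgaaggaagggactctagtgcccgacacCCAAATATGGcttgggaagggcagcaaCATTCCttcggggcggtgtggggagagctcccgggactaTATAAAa
Ankrd23: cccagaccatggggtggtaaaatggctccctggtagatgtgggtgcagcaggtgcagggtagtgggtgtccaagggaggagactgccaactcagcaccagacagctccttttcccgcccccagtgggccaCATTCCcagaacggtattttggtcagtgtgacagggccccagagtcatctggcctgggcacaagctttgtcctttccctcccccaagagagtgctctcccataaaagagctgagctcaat
Cpxm2: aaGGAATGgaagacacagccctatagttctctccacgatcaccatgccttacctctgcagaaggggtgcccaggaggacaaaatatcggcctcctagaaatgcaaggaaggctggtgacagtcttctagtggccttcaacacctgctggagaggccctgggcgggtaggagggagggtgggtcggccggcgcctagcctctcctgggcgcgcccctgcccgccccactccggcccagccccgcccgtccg
Cd36: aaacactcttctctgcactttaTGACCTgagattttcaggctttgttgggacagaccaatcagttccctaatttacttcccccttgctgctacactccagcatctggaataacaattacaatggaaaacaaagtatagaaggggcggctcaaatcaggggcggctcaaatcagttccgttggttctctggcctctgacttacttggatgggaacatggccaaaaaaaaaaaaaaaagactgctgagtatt

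Just outside the threshold lay genes of iron, glucose and lipid handling and of adrenergic signalling. Slc40a1 encodes ferroportin, the iron exporter. It stood at 1627 and 1253 in Control and at 687, 847 and 784 in Total KO (log2 difference -0.89 ± 0.15, adjusted p = 0.0511, edgeR 0.0317). Fbp2, the muscle fructose bisphosphatase, stood at 760 and 827 in Control and at 202, 309 and 422 in Total KO (-1.41 ± 0.24, adjusted p = 0.0619, edgeR 0.0350). Adra1b, the alpha-1B adrenergic receptor, stood at 648 and 646 in Control and at 299, 277 and 339 in Total KO (-1.09 ± 0.19, adjusted p = 0.0751, edgeR 0.0353). All 3 passed with edgeR but not with limma, as did Smim5, a small membrane protein (220 and 236 against 112, 80.1 and 85.9, limma adjusted p = 0.0801, edgeR 0.0353). On the higher side, Lpin1, a phosphatidate phosphatase that also coactivates PPAR-alpha, stood at 2253 and 2339 in Control and at 3752, 3722 and 3247 in Total KO (0.64 ± 0.12, adjusted p = 0.0801). Mid1ip1, which promotes the assembly of acetyl-CoA carboxylase, stood at 912 and 910 in Control and at 2014, 1310 and 1720 in Total KO (0.86 ± 0.15, adjusted p = 0.0801). Ephx2, the soluble epoxide hydrolase of fatty acid epoxides, stood at 9674 and 8835 against 5250, 6393 and 6485 (-0.62 ± 0.12, adjusted p = 0.0926). Fkbp10 and Leprel4, both partners in collagen modification, were at -0.95 ± 0.18 and -0.71 ± 0.14 (adjusted p = 0.0927 for each). Groups that did not overlap were a condition for naming each of these genes, so that trait is no result. The remaining genes named by lowest p were Prune2 (log2 difference 0.77), Krt80 (1.22) and Arhgap9 (0.90) on the higher side and Fign (-0.98) on the lower side, with adjusted p from 0.0801 to 0.0809.

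Gene lists that fit a heart short of a fatty acid transporter were read by their counts. Of 38 function lists, 35 held no gene that passed with limma. The other 3 lists held 1 each, which in the natriuretic peptide and fetal program list was Acta1. Some genes are in more than 1 list, and the gene of the PPAR target list was also that of the remaining list. Where 0 genes of a list passed, edgeR and DESeq2 also called 0 unless their calls are given. The median log2 difference over all tested genes was 0.00035. At an unadjusted p under 0.05, 3.91% of all tested genes were higher and 4.20% lower. Each list count at that p stands beside these shares. List counts at an unadjusted p under 0.05 moved with single libraries. Values without a library are given beside many of the lists, but not for every list and library.

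Fatty acid genes leaned low without passing. In the list of fatty acid uptake and activation, 0 of 22 tested genes passed, and 4 of 22 had an unadjusted p under 0.05, all lower (18.2%, against 4.20% of all genes). They were Cd36 itself, Slc27a1, Cav1 and Acsl4, of which DESeq2 called Cd36 and Slc27a1. Without Total KO replicate 1 the count was 2 lower and 1 higher, and without Control replicate 1 it was 2 lower. Slc27a1, the fatty acid transport protein FATP1, stood at 7294 and 8146 in Control and at 5180, 5006 and 6098 in Total KO (-0.51 ± 0.13, adjusted p = 0.226, DESeq2 0.0249). Cav1, the caveolin that shapes the membrane pits where CD36 resides, stood at 6179 and 5305 against 3995, 4941 and 4665 (-0.34 ± 0.11, adjusted p = 0.399). Both had Total KO libraries below Control. Fabp3, the cytosolic fatty acid carrier of the heart, stood at 16603 and 17423 against 15565, 18058 and 18537 (0.03 ± 0.13, adjusted p = 0.986), with groups that overlapped and a sign that turned under quantile normalization (-0.10) and library totals (-0.02). Lpl, the lipase that frees fatty acids from lipoproteins, stood at 165141 and 117376 against 167077, 153839 and 162561 (0.21 ± 0.25, adjusted p = 0.914). Its Total KO values lay within the spread of the Control pair except for replicate 1, which was slightly above it.

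In the list of the carnitine shuttle and mitochondrial beta-oxidation, 0 of 24 tested genes passed. Of the 24, 13 had every Total KO library below both Control libraries (54.2%, against 12.8% of all genes) and 0 had every one above. The median log2 difference was -0.15 and the range -0.48 to 0.08. Of the 24, 5 had an unadjusted p under 0.05, and 0 of 24 did without Total KO replicate 1 or without Control replicate 1, with medians of -0.15 and -0.16. Without Total KO replicate 2 there were 2, and without Control replicate 2 there were 3. Cpt1a, the carnitine palmitoyltransferase of the outer mitochondrial membrane, stood at 2109 and 2045 in Control and at 1209, 1651 and 1779 in Total KO (-0.44 ± 0.16, adjusted p = 0.470). Slc22a5, the carnitine importer, stood at 570 and 501 against 306, 412 and 450 (-0.48 ± 0.20, adjusted p = 0.567). Mlycd, which removes the CPT1 inhibitor malonyl-CoA, stood at 3679 and 4026 against 2579, 3051 and 3434 (-0.36 ± 0.15, adjusted p = 0.568). In these 3 genes replicate 1 had the lowest value of the Total KO libraries.

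The PPAR target list held 28 tested genes, of which 1 passed with limma and 3 were lower with DESeq2. Every Total KO library was below both Control libraries in 15 of 28 genes (53.6%, against 12.8% of all genes) and above in 0. The median log2 difference was -0.26, and -0.18 without Total KO replicate 1. An unadjusted p under 0.05 was found for 9 of 28, all lower (32.1%, against 4.20% of all genes). Without Total KO replicate 1, 5 were lower and 2 higher, and without either Control library 5 were lower. Acot2, a mitochondrial acyl-CoA thioesterase, stood at 2912 and 2817 in Control and at 1096, 1623 and 1736 in Total KO (-0.98 ± 0.21, adjusted p = 0.133, DESeq2 0.00206). Its cytosolic paralog Acot1 stood at 1063 and 713 against 163, 422 and 485 (-1.43 ± 0.37, adjusted p = 0.253), and reads shared by the pair may have been split between them. Plin5, the lipid droplet coat protein that tethers droplets to mitochondria, stood at 5116 and 4472 against 3123, 3832 and 3593 (-0.45 ± 0.13, adjusted p = 0.360). In all 3 genes the groups did not overlap and replicate 1 was the lowest Total KO library.

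Total KO replicate 1 stood apart in Pdk4, Ucp3 and Angptl4, which respond to fatty acids and fasting. Pdk4, the kinase that shuts off pyruvate dehydrogenase, stood at 78749 and 66347 in Control, at 10175 in Total KO replicate 1 and at 46934 and 49344 in replicates 2 and 3. Ucp3, a mitochondrial carrier induced by fatty acids, stood at 2454 and 2620 in Control and at 542, 2008 and 2157 in Total KO. Angptl4, the secreted inhibitor of lipoprotein lipase, stood at 1164 and 1258 in Control and at 304, 1824 and 1813 in Total KO. In each gene replicate 1 was far below the other two Total KO libraries, and for Angptl4 replicates 2 and 3 were above both Control libraries. The log2 differences were -1.33 ± 0.54 for Pdk4 (adjusted p = 0.537), -0.93 ± 0.54 for Ucp3 (adjusted p = 0.739) and -0.27 ± 0.58 for Angptl4 (adjusted p = 0.959). Without replicate 1 the differences were -0.59 for Pdk4 and -0.28 for Ucp3. The value for Angptl4 was 0.59 without replicate 1, and 0.12 with edgeR and with DESeq2. Replicate 1 was the lowest Total KO library in 22 of 28 PPAR targets, replicate 2 in 6 and replicate 3 in 0. The same order was not counted over all genes, so it is not shown to be particular to PPAR targets. Over all genes tested, replicate 1 was at least 2-fold below both other Total KO libraries in 108 genes and at least 2-fold above both in 48. The same counts were 21 and 32 for replicate 2 and 30 and 14 for replicate 3. Replicate 1 also had the fewest reads of the 5 libraries (11157062), and the part of depth in this was not tested. Without replicate 1, 4 genes passed between Total KO and Control, 3 of them among the 11.

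**Figure D3:**
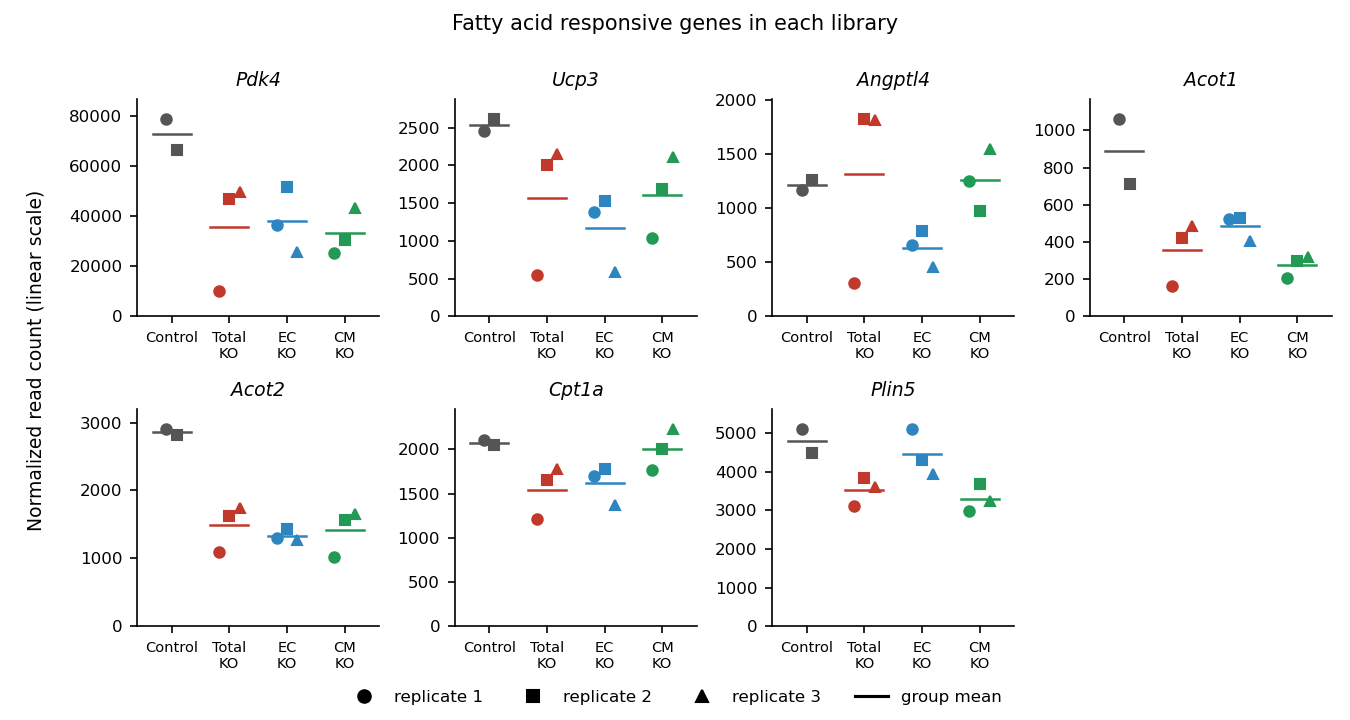
Normalized read counts (linear axis from 0) of 7 genes of fatty acid metabolism and fasting in all 11 libraries. Points are libraries, marked by replicate, and lines are group means. Total KO replicate 1 (red circle) is the lowest Total KO library in each panel, as for Pdk4 at 10175 against 46934 and 49344.

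Lipid storage genes went both ways. Of 24 tested genes of triglyceride synthesis, storage and lipolysis, 0 passed. At an unadjusted p under 0.05, 3 were higher (12.5%, against 3.91% of all genes), namely Lpin1, Plin3 and Dgat2. At that p 4 were lower (16.7%, against 4.20%), namely Agpat3, Plin5, Lipe and Cidea. DESeq2 called Lpin1 alone. Without Total KO replicate 1 the counts were 5 higher and 3 lower, and without Control replicate 1 they were 2 and 3. Lipe, the hormone-sensitive lipase, stood at 1480 and 1946 against 1225, 1212 and 1443 (-0.40 ± 0.13, adjusted p = 0.414). Plin3, a droplet coat protein, stood at 5473 and 5427 against 6678, 7107 and 6732 (0.33 ± 0.10, adjusted p = 0.366). Plin2, the coat protein that tracks with droplet content, stood at 2085 and 1985 against 1200, 3024 and 2522 (0.04 ± 0.28, adjusted p = 0.987). Its Total KO libraries fell on both sides of Control. The sign of the Plin2 value turned under quantile normalization (-0.0047) and library totals (-0.012).

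Several genes of glucose use read higher in Total KO. In the list of glucose uptake and glycolysis, 0 of 29 tested genes passed with limma, and 9 were higher (31.0%, against 3.91% of all genes) and 2 lower at an unadjusted p under 0.05. Among the 9 were Hk2, Pfkfb2, Slc2a1, Slc2a4, Pgk1, Hk1, Pgam2 and Pfkp, and the 2 lower ones were Fbp2 and Pfkfb1. DESeq2 called 3 higher and 1 lower, and edgeR called 1, Fbp2, lower. The median log2 difference was 0.12. Without Total KO replicate 1 the count was 6 higher and 2 lower. Without Control replicate 1 the count was 3 higher and 3 lower, and without Control replicate 2 it was 11 and 2. Hk2, the insulin-responsive hexokinase, stood at 2650 and 3538 in Control and at 6856, 4930 and 4816 in Total KO (0.83 ± 0.17, adjusted p = 0.127, DESeq2 0.00185). Pfkfb2, which makes the phosphofructokinase activator fructose 2,6-bisphosphate in the heart, stood at 1346 and 1167 against 3545, 2406 and 1739 (0.97 ± 0.24, adjusted p = 0.220, DESeq2 0.00451). In both genes every Total KO library exceeded both Control libraries, and replicate 1 was the highest. Pfkfb1, the liver and muscle paralog, stood at 522 and 491 against 171, 239 and 303 (-1.13 ± 0.35, adjusted p = 0.366). Slc2a1, the glucose transporter GLUT1, stood at 302 and 418 against 490, 428 and 525 (0.43 ± 0.15, adjusted p = 0.430). Slc2a4, the insulin-regulated GLUT4, stood at 6191 and 9295 against 10255, 9680 and 10340 (0.41 ± 0.15, adjusted p = 0.478). For both transporters the lowest Total KO value was only slightly above the higher Control value.

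Glycogen and pyruvate genes gave a few separate values. Among 16 tested glycogen genes, 0 passed, and DESeq2 called Ugp2 and Phkg1. At an unadjusted p under 0.05, 4 were higher (25%, against 3.91% of all genes) and 2 lower (12.5%, against 4.20%). Without Control replicate 1 the counts were 1 higher and 2 lower, and without Total KO replicate 1 or 2 they were 2 and 2. Ugp2, which makes the UDP-glucose used for glycogen, stood at 5535 and 5879 in Control and at 8926, 10581 and 8120 in Total KO (0.68 ± 0.13, adjusted p = 0.0889, DESeq2 0.000266). Phkg1, the catalytic subunit of muscle phosphorylase kinase, stood at 542 and 611 against 297, 377 and 279 (-0.87 ± 0.20, adjusted p = 0.184). Ppp1r3c, a glycogen-targeting subunit of protein phosphatase 1, stood at 1219 and 1376 against 2722, 2324 and 1723 (0.78 ± 0.26, adjusted p = 0.389). The groups did not overlap in any of the 3. Of 15 genes of pyruvate dehydrogenase and its control, 0 passed, with 2 higher (13.3%) and 1 lower (6.67%) at an unadjusted p under 0.05. Without Total KO replicate 1 the counts were 2 and 0. Pcx, pyruvate carboxylase, stood at 802 and 1027 against 1431, 1209 and 1303 (0.53 ± 0.14, adjusted p = 0.258). Pdhx, the E3-binding protein of the complex, stood at 2542 and 2931 against 3447, 3607 and 3437 (0.36 ± 0.12, adjusted p = 0.382).

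**Figure D4:**
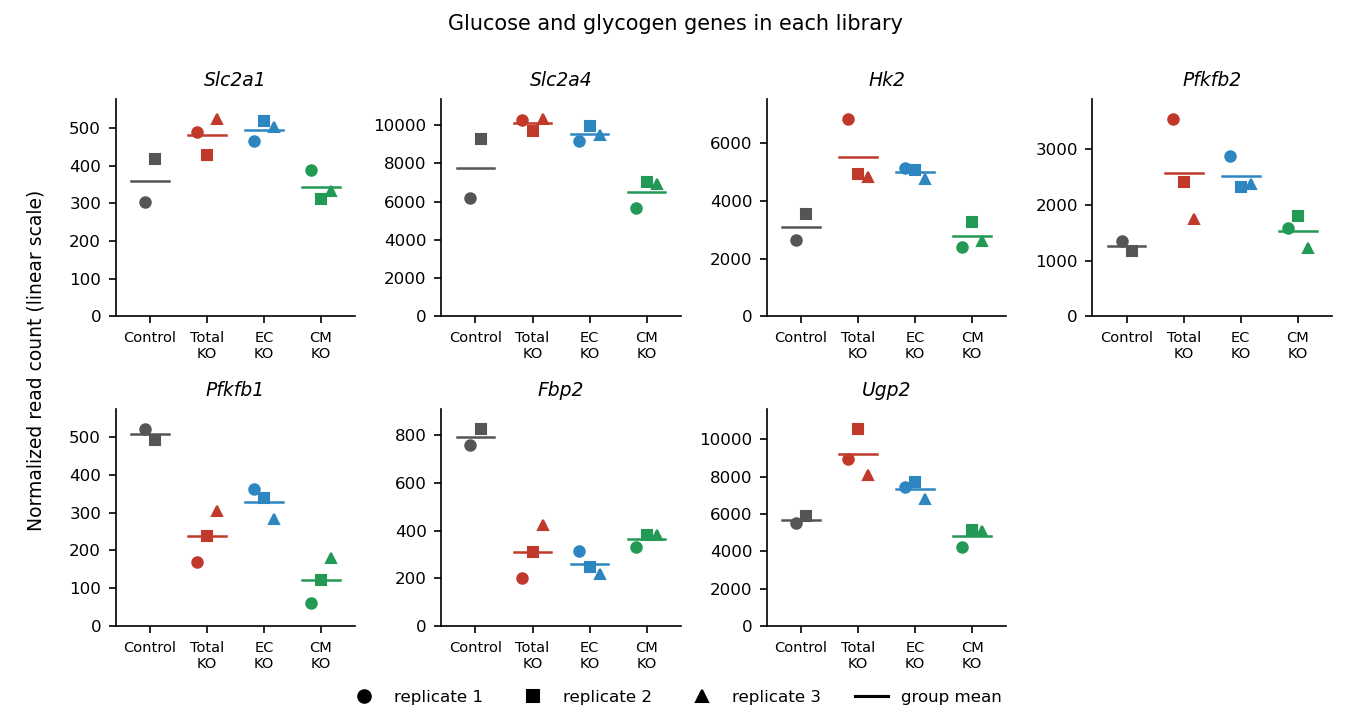
Normalized read counts (linear axis from 0) of 7 genes of glucose transport, glycolysis and glycogen in all 11 libraries. Points are libraries, marked by replicate, and lines are group means. None of the 7 passed with limma, and for Hk2 the Total KO libraries lie at 4816 to 6856 against 2650 and 3538 in Control.

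Regulators and mitochondrial genes gave few separate values. Bdh1, the mitochondrial dehydrogenase that burns beta-hydroxybutyrate, stood at 2319 and 3378 in Control and at 6177, 5198 and 5312 in Total KO. All Total KO libraries were above both Control libraries, with a log2 difference of 0.99 ± 0.19 and an adjusted p of 0.0939 (DESeq2 0.000572). Among 23 PPAR, PGC-1 and ERR regulators 0 passed, and DESeq2 called Lpin1. At an unadjusted p under 0.05, 2 were higher, Lpin1 and Ppara (8.7%, against 3.91% of all genes). Without Control replicate 2 the counts were 5 higher and 1 lower, and without Control replicate 1 they were 1 and 1. Ppara itself stood at 1478 and 1508 against 2802, 2218 and 2139 (0.67 ± 0.24, adjusted p = 0.453), and Ppargc1a at 2269 and 1898 against 3543, 2848 and 2406 (0.48 ± 0.30, adjusted p = 0.771). Both were higher in every Total KO library than in Control, while the median of the target list was below 0. Of 43 oxidative phosphorylation subunits 0 passed and 1 had an unadjusted p under 0.05, with a median log2 difference of 0.04. Of 26 TCA cycle and shuttle genes 0 passed and 2 had such a p (median 0.02), or 0 without Control replicate 1. Of 28 mitochondrial ribosomal protein genes 0 passed, 1 had such a p, and 14 of 28 (against 12.3% of all genes) had every Total KO library above both Control libraries. Their differences were small, with a median of 0.11 and Mrpl19 at 0.35 ± 0.12 (377 and 420 against 512, 507 and 503). All genes with an unadjusted p under 0.05 in these mitochondrial lists were higher. They were 2.33% of the oxidative phosphorylation list, 7.69% of the TCA list and 3.57% of the ribosomal list, against 3.91% of all genes.

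Markers of cardiac stress did not pass apart from Acta1. The natriuretic peptide gene Nppa stood at 6038 and 10192 in Control and at 17338, 12343 and 6797 in Total KO (0.53 ± 0.38, adjusted p = 0.807). Nppb stood at 6694 and 8556 against 7847, 10391 and 11126 (0.36 ± 0.31, adjusted p = 0.851). Myh7, the beta-myosin heavy chain of the fetal program, stood at 14169 and 10482 against 24472, 11093 and 16004 (0.42 ± 0.38, adjusted p = 0.865). In all 3 the groups overlapped. Corin, the protease that activates atrial natriuretic peptide, stood at 7912 and 6246 against 5756, 4495 and 4076 (-0.57 ± 0.16, adjusted p = 0.343). Ankrd2, a relative of Ankrd23 induced by stretch in muscle, stood at 3.11 and 7.46 against 8.91, 44.3 and 30.9 (2.04 ± 0.61, adjusted p = 0.359). The genes Ankrd2 and Acta1 shared their highest Total KO library, replicate 2. Of 25 sarcomere and Z-disc genes 0 passed, with a median log2 difference of 0.12. At an unadjusted p under 0.05, 3 were higher (12%, against 3.91% of all genes), and 2 without Total KO replicate 1. Myot, a Z-disc protein, stood at 2129 and 1335 against 2969, 3038 and 2217 (0.69 ± 0.18, adjusted p = 0.282). Of 21 heat shock genes 0 passed. At an unadjusted p under 0.05, 4 were higher (19%, against 3.91% of all genes) and 1 lower (4.76%, against 4.20%). Bag3 and Hspb8, which act together in the quality control of sarcomere proteins, were at 0.52 ± 0.16 and 0.42 ± 0.14 (adjusted p = 0.366 and 0.415). The heat shock counts rested on Control. Without Control replicate 1 they were 0 higher and 1 lower, and without Control replicate 2 they were 6 and 1. Bag3 passed without Control replicate 2 (0.85, adjusted p = 0.0429) and was at 0.19 without Control replicate 1.

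In signalling lists the lower values came from G protein and early response genes. Of 19 adrenergic, endothelin and angiotensin genes, 0 passed with limma. At an unadjusted p under 0.05, 5 were lower (26.3%, against 4.20% of all genes) and 1 higher (5.26%, against 3.91%). edgeR called Adra1b lower, and DESeq2 called 2 lower, Adra1b and Rgs2. Rgs2, which turns off Gq signalling, stood at 1037 and 679 in Control and at 351, 288 and 306 in Total KO (-1.41 ± 0.28, adjusted p = 0.0939). Chrm2, the muscarinic receptor of the heart, stood at 640 and 660 against 401, 408 and 500 (-0.58 ± 0.18, adjusted p = 0.367). Grk5, a kinase that desensitizes adrenergic receptors, stood at 494 and 548 against 318, 315 and 324 (-0.70 ± 0.23, adjusted p = 0.376). In each gene all Total KO libraries were below Control. Of 28 immediate early genes 0 passed, and the median log2 difference was -0.20. At an unadjusted p under 0.05, 5 were lower (17.9%, against 4.20% of all genes) and 1 higher (3.57%, against 3.91%). Without Total KO replicate 1 the counts were 8 lower and 1 higher with a median of -0.37, and Klf6 passed (-0.96, adjusted p = 0.0327). Without either Control library 3 were lower. Fosl2 and Klf6 were at -0.72 ± 0.20 and -0.71 ± 0.19 (adjusted p = 0.289 for each), while Nr4a3, an orphan nuclear receptor, was at 1.24 ± 0.44 (26.4 and 53.7 against 98.0, 122 and 61.7, adjusted p = 0.444). Of 26 glucocorticoid and fasting responsive genes 0 passed, with 4 higher and 4 lower at an unadjusted p under 0.05, or 4 and 2 without Control replicate 1 and 3 and 2 without Control replicate 2. With all libraries the higher and the lower count were each 15.4% of the list, against 3.91% and 4.20% of all genes. Without Total KO replicate 1 the counts were 5 higher and 6 lower. Lcn2, an acute phase protein, stood at 42.7 and 59.6 against 149, 194 and 103 (1.49 ± 0.37, adjusted p = 0.233). Sgk1, a steroid-induced kinase, stood at 2105 and 1947 against 1694, 1058 and 909 (-0.78 ± 0.26, adjusted p = 0.387).

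The cell cycle list had the lowest median of the 38 lists, -0.60 over 25 tested genes. None passed with limma or edgeR, and DESeq2 called Ccnd1. Of the 25, 11 had every Total KO library below both Control libraries (44.0%, against 12.8% of all genes). At an unadjusted p under 0.05, 4 were lower (16%, against 4.20% of all genes). Without Total KO replicate 1, 6 were lower at that p, with a median of -0.42. Without Control replicate 1, 2 were lower at that p, with a median of -0.46. Ccnd1, cyclin D1, stood at 643 and 865 in Control and at 424, 547 and 506 in Total KO (-0.61 ± 0.14, adjusted p = 0.165, DESeq2 0.0170). Mki67, a marker of dividing cells, stood at 103 and 59.6 against 38.2, 38.4 and 43.4 (-0.96 ± 0.35, adjusted p = 0.470). Top2a, the topoisomerase of dividing cells, stood at 41.2 and 30.6 against 8.91, 12.8 and 17.5 (-1.42 ± 0.45, adjusted p = 0.366). Most of these genes were read at low counts. Of 27 genes of the unfolded protein and integrated stress response 0 passed. At an unadjusted p under 0.05, 0 were lower and 3 were higher (11.1%, against 3.91% of all genes). These were Ddit3 (0.56 ± 0.13), Atf4 (0.38 ± 0.10) and Herpud1 (0.62 ± 0.17), with adjusted p from 0.190 to 0.303. Of 22 ubiquitin ligase and autophagy genes 0 passed with limma, and DESeq2 called Ctsl higher and Asb4 and Rnf207 lower. At an unadjusted p under 0.05, 4 were higher (18.2%, against 3.91% of all genes) and 2 lower (9.09%, against 4.20%). The counts were 2 and 2 without Control replicate 1, and 6 and 4 without Control replicate 2. Ctsl, a lysosomal cathepsin, stood at 4270 and 3420 against 6147, 6583 and 6714 (0.76 ± 0.17, adjusted p = 0.165). Asb4, a substrate adaptor of a ubiquitin ligase, stood at 134 and 126 against 53.5, 69.9 and 71.7 (-0.998 ± 0.21, adjusted p = 0.133).

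Clock genes were read because time of collection is not given. Among the 6 tested clock genes that peak with Arntl, 3 were higher and 2 lower at an unadjusted p under 0.05. These were 50% and 33.3% of the list, against 3.91% and 4.20% of all genes. Npas2 stood at 118 and 107 against 49.6, 82.7 and 44.2 (-0.98 ± 0.26, adjusted p = 0.289) and Nfil3 at 173 and 152 against 262, 240 and 248 (0.62 ± 0.27, adjusted p = 0.582). None of the 6 passed. The counts were 0 higher and 1 lower without Control replicate 1, and 1 and 3 without Control replicate 2. Of 15 genes that peak with Dbp 0 passed, with 2 higher (13.3%) and 1 lower (6.67%) at an unadjusted p under 0.05. For these the counts were 0 and 1 without Control replicate 1 and 2 and 0 without Control replicate 2. Interferon-stimulated genes (27 tested), antigen presentation genes (15), fibrosis and matrix genes (39) and sterol and fatty acid synthesis genes (28) held 0 calls by limma, edgeR or DESeq2, and at an unadjusted p under 0.05 their counts were 2, 0, 1 and 0. The 2 interferon genes were 1 higher and 1 lower (3.7% each, against 3.91% and 4.20% of all genes). The 1 fibrosis and matrix gene was higher (2.56%). The interferon and antigen values turned with the Control libraries. The median log2 difference of the interferon list was -0.20, and -0.47 without Control replicate 1 (1 higher and 7 lower) and 0.092 without Control replicate 2. That of the antigen presentation list was -0.14, and -0.31 without Control replicate 1 (4 lower) and 0.10 without Control replicate 2. The fibrosis and matrix median was 0.020, and -0.23 without Control replicate 1.

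**Figure D5:**
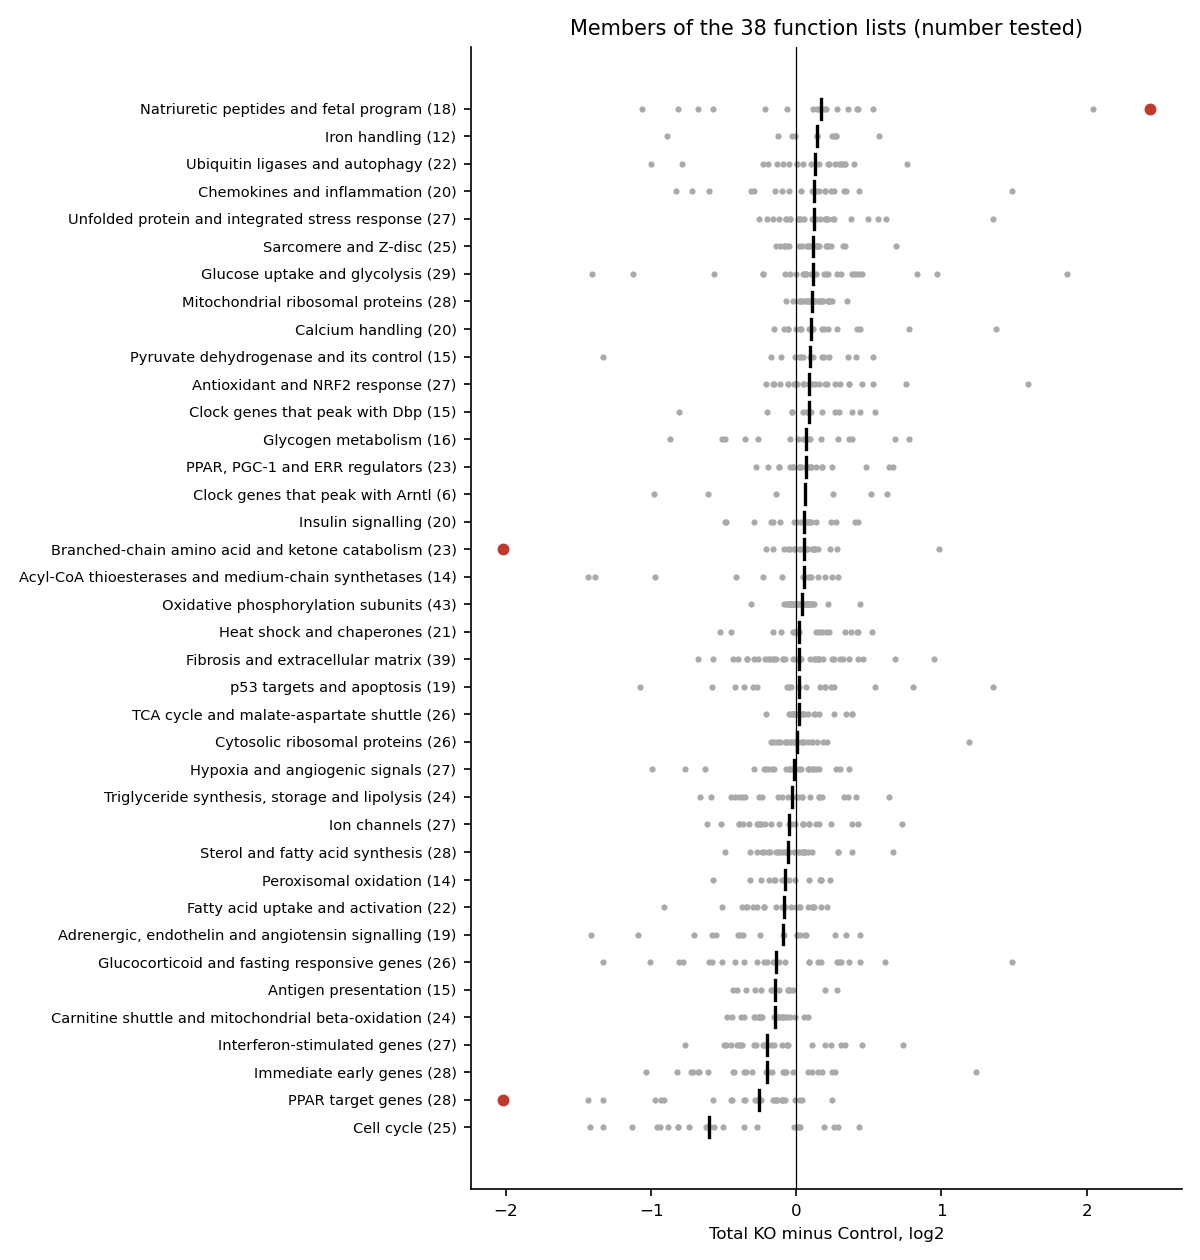
Log2 difference between Total KO and Control (horizontal axis) of each tested member of the 38 function lists, sorted by median, with the number tested in brackets. Grey points are genes, red points genes with an adjusted p under 0.05, and black bars medians. The cell cycle list has the lowest median at -0.60 and the natriuretic peptide and fetal program list the highest at 0.17.

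Marker genes were read for the cell types that the tissue could hold. The 8 cardiomyocyte markers summed to 1141740 and 1182170 in Control and to between 1202110 and 1307050 in Total KO, and the tissue carried the markers of its label. The 10 endothelial markers summed to 18402 and 18843 in Control and to between 16783 and 18323 in Total KO, and the 9 fibroblast markers to 19399 and 20171 against 16666 to 20978. None of the tested markers of these 3 types passed with limma, edgeR or DESeq2, and 0 had an unadjusted p under 0.05. The 9 smooth muscle and pericyte markers summed to 14660 and 17104 in Control and to between 13688 and 14320 in Total KO. Of these, 0 passed and 1 was lower at that p (11.1%, against 4.20% of all genes). Every Total KO sum was above both Control sums for cardiomyocyte markers. Every one was below both for endothelial and for smooth muscle and pericyte markers. Gene by gene, 2 of 8 cardiomyocyte markers had every Total KO library above both Control libraries (25%, against 12.3% of all genes) and 0 below. Of the 10 endothelial markers, 1 was above in this way (10%) and 0 were below (0%, against 12.8% of all genes). Of the 9 smooth muscle and pericyte markers, 1 was above (11.1%) and 2 were below (22.2%). Of the 6 skeletal muscle markers, Acta1 passed, Ckm stood at 26906 and 25783 in Control and at 26634 to 28625 in Total KO, and Myh1, Myh2, Myh4 and Tnnt3 stood at or under 9.18 in all 5 libraries. Atrial markers other than Nppa were low, with Sln at or under 3.11 and Myl7 at or under 10.1. The adipocyte markers Adipoq and Plin1 stood at or under 5.0, but the list of 7 was not low as a sum. It summed to 19355 and 16470 in Control and to between 12565 and 19059 in Total KO. Only 1 of the 7 was tested, with a log2 difference of -0.14. The others had a mean under 10, so nearly all of the sum came from that 1 marker and does not speak for the list. The neutrophil markers summed to 81.6 and 39.5 in Control and to between 26.7 and 42.6 in Total KO, so the groups overlapped. The Y-linked genes Ddx3y, Eif2s3y, Kdm5d and Uty were read in all 5 libraries, and Xist stood at or under 8.95.

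The groups were not far apart as a whole. Recovered reads were 17058598 and 18258252 in Control and 11157062 to 16753994 in Total KO. Per degree of freedom, the chi-square over genes was 26.4 between the 2 Control libraries, 8.4 to 13.9 between Total KO libraries and 15.3 to 26.1 between a Control and a Total KO library. Pearson's r of log2 values across genes, which are not independent replicates, was 0.982 to 0.992 for all pairs. Every pair differed by more than sampling noise.

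The 11 genes were then compared between Total KO and the cell-type knockouts, to describe where the total knockout differs. Between Total KO and EC KO, 5 of 12976 genes passed (0.0385%), none of them among the 11. All 5 were lower in Total KO. Ckap2l, a spindle protein, stood at 2.55, 4.26 and 2.50 in Total KO and at 36.3, 38.5 and 55.7 in EC KO. Iqgap3, a scaffold of proliferating cells, stood at 11.5, 14.5 and 10.8 against 42.3, 71.1 and 81.3. EC KO replicate 1 had the fewest reads of the 11 libraries (2268403), so 1 read in it is worth 6.04 normalized read counts, and its values for Ckap2l and Iqgap3 rest on 6 and 7 reads. Fkbp5, a glucocorticoid-induced chaperone, stood at 1179, 1149 and 1118 in Total KO and at 1976, 2157 and 2201 in EC KO, with 816 and 880 in Control. Spock2, a matrix proteoglycan, and Trp53inp1, a p53 target, were the other two. The groups did not overlap in any of the 5. The count was 0 without Total KO replicate 2 or 3 or EC KO replicate 2, 1 without EC KO replicate 1 or either Control library, 7 without Total KO replicate 1 and 28 without CM KO replicate 1. A gene of the 11 that did not pass in this comparison is not shown to be equal between the groups. For Acta1 the log2 difference between Total KO and EC KO was 1.41 ± 0.35 (EC KO values 7045, 7191 and 4055, adjusted p = 0.227).

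Between Total KO and CM KO, 2128 of 12976 genes passed (16.4%), and 7 of the 11 were among them. The 11 had been chosen in a comparison that uses the same Total KO libraries, so this count is a description. Tnfrsf19 stood at 196, 139 and 212 in CM KO, near its Control level, and at 42.5 to 46.9 in Total KO (log2 difference -1.995 ± 0.23, adjusted p = 0.000714). Kcnc1 stood at 31.6, 35.0 and 22.9 in CM KO and at 80.9 to 113 in Total KO (1.63 ± 0.27, adjusted p = 0.00424). Sorcs2 stood at 155, 275 and 317 in CM KO and at 87.0 to 122 in Total KO (-1.16 ± 0.22, adjusted p = 0.00656). In these 3 genes no Total KO library overlapped with a CM KO library. Cpxm2 (0.75 ± 0.13, adjusted p = 0.00491), Ankrd23 (0.58 ± 0.12, adjusted p = 0.00941), Cnksr1 (0.56 ± 0.14, adjusted p = 0.0169) and Nlrc3 (0.79 ± 0.25, adjusted p = 0.0467) were higher in Total KO. Acta1 (0.55 ± 0.35, adjusted p = 0.323), Pdzd3 (0.35 ± 0.16, adjusted p = 0.156) and Syt12 (0.36 ± 0.17, adjusted p = 0.182) did not pass. Cd36 stood at 30308, 27804 and 25759 in EC KO and at 15792, 21610 and 21363 in CM KO. It was not shown to differ between Total KO and either group (adjusted p = 0.393 and 0.638), although every Total KO library was below every EC KO library. CM KO libraries also carried fibroblast marker sums of 29682 to 72773 and atrial marker sums of 106306 to 216641, against 16666 to 20978 and 6872 to 17413 in Total KO, and the part of these in the differences was not tested.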

How the data were processed

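Heart RNA was sequenced from 400 ng of total RNA with a stranded, ribosomal RNA-depleted library kit, per the labels' protocols. Per the submitters' processing notes, the genome build was mm10 and the tools were TopHat2, whose version is not given, then HTSeq 0.8.0 and a DESeq2 listed as 3.5; the annotation and strand setting are not given in the sources used here. The deposited signal values are counts that the authors divided by 1 factor per library. All 257620 values (100%) lay within 0.05 of whole reads, which were recovered for edgeR and DESeq2. Of 23420 genes, 12976 had a mean of at least 10. A limma model (3.58.1, R 4.3.3, trended prior variance) of log2(value + 1) was fitted to all 11 libraries in 4 groups, with Benjamini-Hochberg adjustment over all tested genes and a threshold of 0.05. Leaving out 1 Control library leaves a lone one, assumed to vary like the other groups.

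Named were Cd36, the 12 largest rises and falls that passed (mean of at least 50, groups not overlapping), filled by lowest p, members of 38 function lists and 14 marker lists that passed or had the 4 lowest p, and 11 genes fixed by name. The results of some genes that this rule names are not reported here. The members and lists were chosen with earlier results of these data known. Alternatives tried were no filter and a minimum of 50, pseudocounts of 0.5 and 5, upper-quartile, quantile and library-total scaling, a fit to the 2 groups, a weight per library, edgeR 4.0.16, DESeq2 1.42.0 and each library left out. Leaving out EC KO and Total KO replicates 1 together was added after seeing the data. The steps were tested on simulated data.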

Additional observations from a re-analysis of the deposited data

Results flagged for a closer look

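For 7 of the 11 genes, the test of the difference between Total KO and CM KO passed. The 11 were chosen with the same Total KO libraries, which favours such differences, so these values and passes are a description only. The log2 differences, Total KO minus CM KO, were -1.995 for Tnfrsf19, -1.16 for Sorcs2, 1.63 for Kcnc1, 0.79 for Nlrc3, 0.75 for Cpxm2, 0.58 for Ankrd23 and 0.56 for Cnksr1. Tnfrsf19, Sorcs2, Kcnc1, Cpxm2 and Ankrd23 passed this test in all 11 fits that left out 1 library, Cnksr1 in 8 and Nlrc3 in 3. Of all genes tested, 16.4% passed the same test.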

How the results depend on the processing

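The count of 11 genes fell to 7 with no filter and rose to 26 with library totals and to 100 with DESeq2. It ranged from 1 to 33 when 1 library was left out and stayed at 8 to 14 in the other alternatives, among them 11 (4 higher, 7 lower, 6 shared with the 11) without EC KO and Total KO replicates 1, chosen after seeing the data. Cd36 passed with quantile normalization (-1.02), library totals (-0.96), a weight per library (-0.89) and DESeq2 (-0.92), and when a library was left out ranged from -1.08 to -0.75, passing without CM KO replicate 1 (adjusted p = 0.0109) and missing in the other 10 such fits (up to 0.364). Among the 11 genes, Cnksr1, Cpxm2, Pdzd3 and Tnfrsf19 passed in all 12 alternatives that left out no single library. Signs turned for genes that did not pass: Angptl4 with a weight per library (0.060), edgeR and DESeq2 (0.12 each) and without Total KO replicate 1, alone or with EC KO replicate 1 (0.59 each; range -0.70 to 0.59 over the libraries left out). They turned for Fabp3 with quantile normalization (-0.10) and library totals (-0.025) and without Control replicate 1 or Total KO replicate 2 or 3 (range -0.021 to 0.11), and for Lpl without Control replicate 2 (range -0.036 to 0.46). They turned for Plin2 with quantile normalization (-0.0047), library totals (-0.012) and without Total KO replicate 2 or 3 (range -0.23 to 0.44). The causes were not tested. Of the 7 genes that differed between Total KO and CM KO, 5 to 7 passed in each alternative, and 0 of the 11 passed between Total KO and EC KO in any. The median of all genes moved farthest with library totals, to -0.0518. No paired analysis was possible because the labels tie no library of 1 group to a library elsewhere. With 2 Control libraries, small differences could be missed, and the spread used in the test was shared by all 4 groups.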

Other observations

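A few genes were nearly silent in one library of a group and plainly read in another. Between the 2 Control libraries, 10 of 12976 tested genes differed at least 8-fold on the scale of value plus 1, and among the 3 Total KO libraries 9 did. Ptprn2, a phosphatase-like protein of secretory vesicles, stood at 0.777 and 451 in Control and at 388, 1.71 and 1.67 in Total KO. Rab6b, a GTPase of Golgi traffic, stood at 10.9 and 431 in Control and at 16.5, 200.4 and 400 in Total KO. Gdpd3, a phosphodiesterase of lysophospholipids, stood at 16.3 in Control replicate 1 and at 1157 in replicate 2, while the Total KO libraries read 1153, 584 and 599. These genes were chosen after their values were seen, and none of them followed the labels of the groups.

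Some genes read higher in Total KO replicate 1 than in the other Total KO libraries. Myh7b stood at 2846 there against 914 and 1316 in the other Total KO libraries and 1522 and 1456 in Control. Ddit4, a stress-induced inhibitor of mTORC1 signalling, stood at 1925 against 670 and 864 in Total KO and 1688 and 1430 in Control, so Control was nearer to replicate 1. Fam107a stood at 429 against 109 and 119 in Total KO and 298 and 301 in Control.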
